A study of Mus musculus with 10 samples.

Results

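The 9 genes Arid1b, Tulp4, Gtf2h5, Tfb1m, Pde10a, Rps6ka2, Ezr, T and Ccr6 are signalling and nuclear genes of mouse chromosome 17 (Mmu17) that Ts65Dn mice carry in 3 copies. They were listed by name, and each was read from the transcript cluster (a set of array probes for 1 transcript or part of it, here called a row) that was annotated with that symbol alone and had the highest mean signal. Such a row was found for 7 of the 9 genes, out of 19936 genes measured in the series and 31 measured in the trisomic part of Mmu17. Rps6ka2 and T had no row with their symbol alone in the annotation used and were not analysed here. Rows with several symbols were not read for them. The 7 others were all tested, as no filter on low signals was applied.

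Hippocampal RNA was compared between 5 male Ts65Dn mice and 5 male control littermates, all 16 weeks old and on an F1 hybrid B6C3B background. Each mouse had its own array, an Affymetrix Mouse Gene 1.0 ST. Left and right hippocampus of a mouse were extracted together. Ts65Dn mice carry a small extra chromosome in which a piece of chromosome 16 (Mmu16) is joined to the centromeric end of Mmu17, and the controls have 2 copies of both. The Mmu17 part has no homology to human chromosome 21 (Hsa21), which limits the model for Down syndrome. In whole hippocampi, a change in the number of cells of a type and a change in RNA per cell cannot be told apart. The labels name the mice of a genotype as biological replicates, so the p-values measure the spread between mice.

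Arid1b, Gtf2h5 and T encode proteins that act in the nucleus on chromatin and transcription, and Tfb1m is described with them as a gene of RNA modification. Arid1b encodes a DNA-binding subunit of the BAF (SWI/SNF) complexes, which move nucleosomes and whose dosage matters in human neurodevelopment. Gtf2h5 encodes the smallest subunit of the general transcription factor TFIIH, which opens DNA for transcription and for nucleotide excision repair. Tfb1m encodes a methyltransferase that modifies the ribosomal RNA of the small subunit of the mitochondrial ribosome. T (brachyury) encodes a T-box transcription factor of the embryonic mesoderm. The signalling genes act at membranes and in kinase pathways. Pde10a encodes a phosphodiesterase that degrades cAMP and cGMP and is known for its high level in striatal medium spiny neurons. Rps6ka2 encodes a ribosomal S6 kinase downstream of ERK. Ezr encodes ezrin, which links the plasma membrane to actin. Ccr6 encodes the receptor for the chemokine CCL20 on lymphocytes. Tulp4 belongs to the Tubby-like family and encodes a protein with WD repeats and a SOCS box.

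All arrays had a median log2 signal between 7.38 and 7.41, and no pair of arrays held identical values. The mean of the 12 hippocampal neuron markers was 10.36 to 10.58 in Ts65Dn and 10.49 to 10.56 in controls, and 0 of them passed the test below, with 1 lower at an unadjusted p under 0.05. This was Wfs1, a marker of CA1 pyramidal neurons named here after its values were seen, which differed by -0.35 ± 0.07 (SE, log2, adjusted p = 0.0925) and whose genotypes did not overlap. Over all 19936 genes 1.57% were lower at that unadjusted p, and 69 genes had every Ts65Dn mouse below every control. The mean of the 13 choroid plexus markers differed widely between mice of either genotype, at 6.62 to 9.06 in Ts65Dn and 6.66 to 8.80 in controls.

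Of the 7 measured genes, 4 were higher in Ts65Dn hippocampi, namely Arid1b, Gtf2h5, Tulp4 and Pde10a, with folds of 1.29 to 1.35. A gene was called when its adjusted p in the limma fit over all rows was under 0.05. Over all 19936 genes 0.276% were called higher by the same rule. Tfb1m and Ezr had folds in the same range or above but did not pass, and Ccr6 had a fold of 1.08. The median fold of the 7 genes was 1.33 (0.41 on the log2 scale), against 1.0 over all genes. For 6 of the 7 genes, all but Ccr6, no Ts65Dn mouse was as low as any control, and the same held for 0.532% of all genes.

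**Figure D1:**
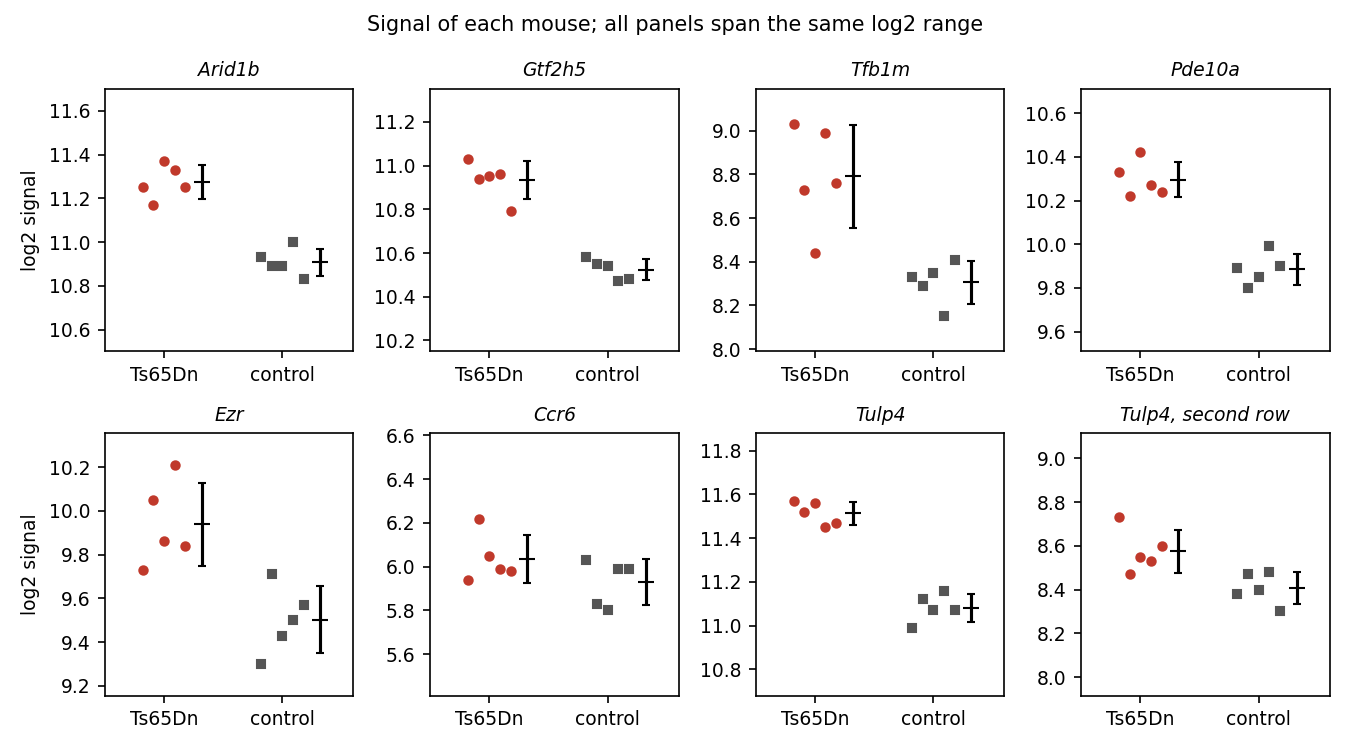
Log2 signal of each mouse for the 7 measured genes and for the second row of Tulp4, with Ts65Dn mice as red circles and controls as grey squares (5 mice each); the black bars are the mean and SD, and every panel spans the same number of log2 units. The genotypes overlap for Ccr6 and for the second row of Tulp4, and are separated by only 0.02 for Tfb1m and 0.01 for Ezr.

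The promoter windows of the 4 called genes are shown beside that of Ccr6, the only one of the 7 genes whose genotypes overlapped, because the sequences differ in base composition. They are the 300 bases from 250 before to 50 after an annotated start, from RefSeq in the GRCm38.p6 build, all on the plus strand of chromosome 17, and where a gene has several windows the one farthest upstream is given. Those of Arid1b (chr17:4994824-4995123), Tulp4 (chr17:6106580-6106879) and Pde10a (chr17:8801495-8801794) begin inside the annotated span of the gene, whose annotated start lies earlier. Those of Gtf2h5 (chr17:6079578-6079877) and Ccr6 (chr17:8235793-8236092) begin before it. For Arid1b, Tulp4 and Pde10a the window can thus hold bases transcribed from the earlier start. Whether any window holds coding sequence was not examined. Capitals mark the GC box GGGCGG, or CCGCCC where it lies on the other strand.
Arid1b: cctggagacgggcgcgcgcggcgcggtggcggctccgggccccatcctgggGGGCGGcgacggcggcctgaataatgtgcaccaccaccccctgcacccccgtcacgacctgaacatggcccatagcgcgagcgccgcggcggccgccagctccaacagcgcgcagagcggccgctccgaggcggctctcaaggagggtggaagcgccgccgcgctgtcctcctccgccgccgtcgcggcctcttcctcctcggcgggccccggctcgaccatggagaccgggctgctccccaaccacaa
Gtf2h5: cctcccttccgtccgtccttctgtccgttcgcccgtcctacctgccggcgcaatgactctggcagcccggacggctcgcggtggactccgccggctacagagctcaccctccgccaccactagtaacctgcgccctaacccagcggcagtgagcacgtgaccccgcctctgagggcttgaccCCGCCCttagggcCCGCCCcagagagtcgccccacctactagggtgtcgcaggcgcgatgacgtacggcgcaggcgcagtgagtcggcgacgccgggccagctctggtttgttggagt
Tulp4: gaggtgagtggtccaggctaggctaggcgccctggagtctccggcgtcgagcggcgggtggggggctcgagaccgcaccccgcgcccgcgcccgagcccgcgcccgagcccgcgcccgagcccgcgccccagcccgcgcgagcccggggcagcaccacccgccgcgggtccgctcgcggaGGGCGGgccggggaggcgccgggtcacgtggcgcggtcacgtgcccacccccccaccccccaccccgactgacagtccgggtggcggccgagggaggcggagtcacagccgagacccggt
Pde10a: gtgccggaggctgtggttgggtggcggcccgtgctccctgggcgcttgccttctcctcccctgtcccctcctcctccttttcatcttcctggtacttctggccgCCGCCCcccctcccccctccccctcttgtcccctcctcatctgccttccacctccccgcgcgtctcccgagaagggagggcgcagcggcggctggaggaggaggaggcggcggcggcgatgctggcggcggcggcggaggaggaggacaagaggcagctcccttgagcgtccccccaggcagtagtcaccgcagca
Ccr6: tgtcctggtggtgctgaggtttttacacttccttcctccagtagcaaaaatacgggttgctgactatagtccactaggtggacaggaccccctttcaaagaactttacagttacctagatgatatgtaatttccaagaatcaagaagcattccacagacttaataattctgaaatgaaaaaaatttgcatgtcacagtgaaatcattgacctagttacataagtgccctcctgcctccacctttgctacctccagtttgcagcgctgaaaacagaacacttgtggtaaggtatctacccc
The window of Ccr6 had 42.3% G and C and 2 CpG, whereas those of Arid1b, Gtf2h5, Tulp4 and Pde10a had 75.3%, 68.7%, 81.0% and 71.3% G and C and 42, 32, 46 and 23 CpG. The first windows of Tfb1m and Ezr, which were not called, had 60.0% and 68.0% G and C. The second windows of Gtf2h5, Tulp4, Pde10a and Ccr6 had 65.3%, 48.0%, 56.7% and 47.7% G and C and 26, 3, 5 and 10 CpG. The contrast with Ccr6 thus depends on the window chosen. The median over 32851 mouse promoter windows was 52.7% G and C. At least 1 GC box was found in the first window of 6 of the 7 measured genes, all but Ccr6, and in 35.7% of all windows. The other motifs searched on both strands were the ETS motif CCGGAAG, the CCAAT box CCAAT, the TATA box TATAAA and the cAMP response element TGACGTCA. Of these only CCGGAAG was found in the first windows of the 7 genes, once, in that of Ezr, and it occurs in 8.86% of all windows. The other shares were 37.4% for CCAAT, 13.6% for TATAAA and 1.79% for TGACGTCA. These matches describe the letters of the windows, and no binding was measured.

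Among the genes of chromatin, transcription and RNA modification, Arid1b (chr17:4994297-5347656) had log2 signals of 11.25, 11.17, 11.37, 11.33 and 11.25 in the Ts65Dn mice and of 10.93, 10.89, 10.89, 11.00 and 10.83 in the controls. The lowest Ts65Dn mouse was 0.17 above the highest control. Arid1b was higher by 0.37 ± 0.05 (SE, log2; or 1.29-fold, 95% confidence interval, CI, 1.20 to 1.39, adjusted p = 0.00438, n = 5 per genotype).

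Gtf2h5 (chr17:6079828-6085488) had log2 signals of 11.03, 10.94, 10.95, 10.96 and 10.79 in the Ts65Dn mice and of 10.58, 10.55, 10.54, 10.47 and 10.48 in the controls. The genotypes did not overlap, and the lowest Ts65Dn mouse was 0.21 above the highest control. This TFIIH subunit was higher by 0.41 ± 0.05 (SE, log2; or 1.33-fold, 95% CI 1.24 to 1.43, adjusted p = 0.00226, n = 5 per genotype).

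For Tfb1m (chr17:3519250-3557796) the log2 signals were 9.03, 8.73, 8.44, 8.99 and 8.76 in the Ts65Dn mice and 8.33, 8.29, 8.35, 8.15 and 8.41 in the controls. Ts65Dn replicate 3 was only 0.02 above the highest control, and the SD between mice was 0.24 in Ts65Dn and 0.0985 in controls. The difference was 0.48 ± 0.10 (SE, log2; or 1.40-fold, 95% CI 1.20 to 1.63, n = 5 per genotype), with a limma p of 0.000543 that did not pass after adjustment (adjusted p = 0.15). Without Ts65Dn replicate 3 the difference was 0.57 and passed (adjusted p = 0.0122). The annotated span of Tfb1m shares 148 bases with the end of Tiam2 and holds the whole of the small gene Cldn20. Tiam2 was itself higher by 0.41 ± 0.05 (SE, log2), whereas Cldn20 differed by 0.07 ± 0.03.

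Among the signalling genes, Pde10a (chr17:8525187-8986648) had log2 signals of 10.33, 10.22, 10.42, 10.27 and 10.24 in the Ts65Dn mice and of 9.89, 9.80, 9.85, 9.99 and 9.90 in the controls. The lowest Ts65Dn mouse was 0.23 above the highest control. Pde10a was higher by 0.41 ± 0.05 (SE, log2; or 1.33-fold, 95% CI 1.23 to 1.43, adjusted p = 0.00314, n = 5 per genotype). Because Pde10a is abundant in the striatum, 10 markers of striatal medium spiny neurons were read in the same arrays. Their mean was 6.88 to 7.11 in Ts65Dn and 6.93 to 7.11 in controls, with single markers between 5.05 and 8.65, and 0 of 10 passed the test. An array signal has no true 0, so a marker of low signal cannot be called absent. With this mean as a covariate Pde10a was higher by 0.39 ± 0.05 (SE, log2, adjusted p = 0.0139).

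Ezr (chr17:6738131-6782780) had log2 signals of 9.73, 10.05, 9.86, 10.21 and 9.84 in the Ts65Dn mice, against 9.30, 9.71, 9.43, 9.50 and 9.57 in the controls. Ts65Dn replicate 1 was only 0.01 above control replicate 2, and the spread within each genotype was wide. The difference was 0.43 ± 0.10 (SE, log2; or 1.35-fold, 95% CI 1.17 to 1.56, n = 5 per genotype), with a limma p of 0.000888 and an adjusted p of 0.209. Ezrin is also abundant in the choroid plexus, whose 13 markers varied between the mice as given above. They include Clic6 and Kcne2, which lie in the trisomic Mmu16 segment and differed by 0.66 ± 0.78 and 0.39 ± 0.39 (SE, log2). No mean of the 13 markers without Clic6 and Kcne2 was taken. After subtraction of the genotype means, and with permutation within genotypes, Ezr and the mean of these markers were correlated over the 10 mice with Pearson's r = 0.70 (exact permutation p = 0.0458, adjusted p = 0.223) and Spearman's rho = 0.54 (exact permutation p = 0.141, adjusted p = 0.32). Without the 2 mice farthest from the median of the marker mean, Ts65Dn replicate 2 and control replicate 5, r was 0.76. It was 1 of 8 relations computed between the genes and marker means, all chosen after the values were seen, and 0 of them passed the adjustment. With the choroid plexus mean, Arid1b had r = -0.65 (exact permutation p = 0.0686, adjusted p = 0.223) and rho = -0.69 (exact permutation p = 0.0494, adjusted p = 0.32), and r was -0.25 without the 2 farthest mice. Pde10a had r = -0.61 (exact permutation p = 0.0836, adjusted p = 0.223) and rho = -0.59 (exact permutation p = 0.103, adjusted p = 0.32), and r was -0.72 without them. The other 4 genes had r between -0.37 and 0.39. With the striatal mean, Pde10a had r = -0.38 (exact permutation p = 0.323, adjusted p = 0.431) and rho = -0.41 (exact permutation p = 0.279, adjusted p = 0.446). This rested on Ts65Dn replicate 2 and control replicate 2, the mice farthest from the median, without which r was 0.50. With the choroid plexus mean as a covariate, the difference of Ezr was 0.40 ± 0.08 (SE, log2; or 1.32-fold, 95% CI 1.18 to 1.48, adjusted p = 0.0853). The 4 called genes kept their calls with this covariate, with folds of 1.30 for Arid1b, 1.33 for Gtf2h5, 1.35 for Tulp4 and 1.34 for Pde10a.

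**Figure D2:**
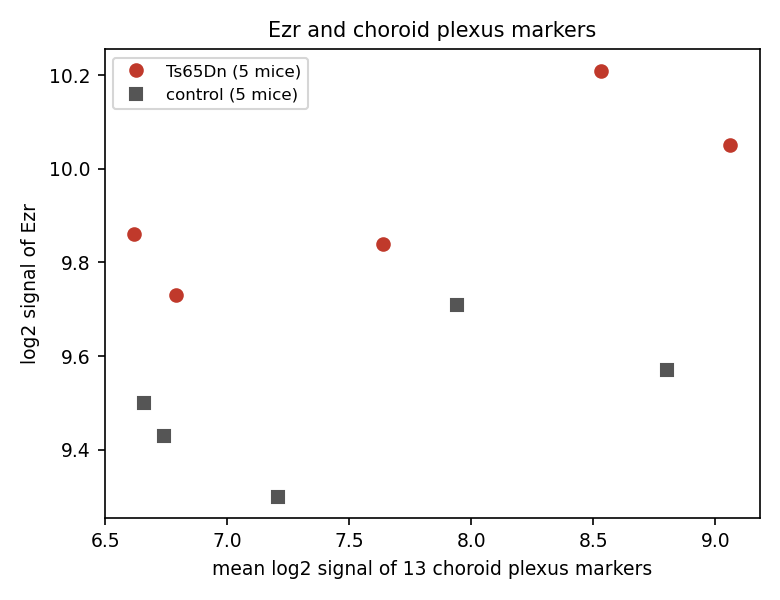
Log2 signal of Ezr against the mean log2 signal of 13 choroid plexus markers in each mouse, with Ts65Dn mice as red circles and controls as grey squares. Ts65Dn replicates 2 and 4, with marker means of 9.06 and 8.53, have the highest Ezr signals. Control replicate 5, with a marker mean of 8.80, has an Ezr signal of 9.57, and all controls lie below every Ts65Dn mouse. The part of the choroid plexus in the difference was not tested by this plot.

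Ccr6 (chr17:8236041-8258519) was dim, with log2 signals of 5.94, 6.22, 6.05, 5.99 and 5.98 in the Ts65Dn mice and of 6.03, 5.83, 5.80, 5.99 and 5.99 in the controls. The genotypes overlapped between 5.94 and 6.03. The difference was 0.11 ± 0.06 (SE, log2; or 1.08-fold, 95% CI 0.98 to 1.19, adjusted p = 1.0, n = 5 per genotype). Its upper bound of 1.19 was below the lower bounds of the 4 called genes, but the differences between genes were not tested. The 10 lymphocyte markers, of the cells known to carry this receptor, had means of 5.73 to 5.86 in Ts65Dn and 5.75 to 5.88 in controls, and 0 of them passed the test.

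Tulp4 (chr17:6106253-6240637) had log2 signals of 11.57, 11.52, 11.56, 11.45 and 11.47 in the Ts65Dn mice and of 10.99, 11.12, 11.07, 11.16 and 11.07 in the controls. The gap of 0.29 between the genotypes was wider than for the other 6 genes. Tulp4 was higher by 0.43 ± 0.04 (SE, log2; or 1.35-fold, 95% CI 1.27 to 1.44, adjusted p = 0.00145, n = 5 per genotype). Tulp4 was the only one of the 7 genes with a second row annotated with its symbol alone, and this row was dimmer. This row had log2 signals of 8.73, 8.47, 8.55, 8.53 and 8.60 in the Ts65Dn mice and of 8.38, 8.47, 8.40, 8.48 and 8.30 in the controls. Here the genotypes overlapped and the difference of 0.17 ± 0.05 (SE, log2; or 1.13-fold, 95% CI 1.04 to 1.22) did not pass (adjusted p = 0.917). The brighter row exceeded the dimmer one by 2.94 ± 0.0906 in Ts65Dn and by 2.68 ± 0.0588 in controls (log2, mean and SD). This excess was larger in Ts65Dn by 0.26 (exact permutation p = 0.00794, two-sided, the smallest that 252 allocations can give; n = 5 per genotype), a comparison chosen after the values were seen. Where the probes of both rows lie in the gene was not examined here.

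The second question was how each fold stood against the copy ratio of 1.5, which is 0.58 on the log2 scale. The 95% CI lay below 1.5 for 5 of the 7 genes, as it did for 99.2% of all genes, most of which are in 2 copies. For Arid1b, Gtf2h5, Tulp4 and Pde10a the interval was above 1 and below 1.5, with upper bounds of 1.39, 1.43, 1.44 and 1.43. Each of these 4 folds lay inside the intervals of the other 3. An interval above 1 and below 1.5 was also found for 8 of the 24 other measured Mmu17 genes. It was found for 40 of the 127 measured genes of the trisomic Mmu16 segment and for 308 of all 19936 genes. No gene had an interval wholly above 1.5. The folds are ratios of array signals, and whether these give a ratio of RNA at its full size was not tested. The intervals of Tfb1m and Ezr held 1.5 and excluded 1, and that of Ccr6 held 1. The rank method, an alternative that orders fold changes over pairs of arrays, called 6 of the 7 genes higher, all but Ccr6, and 2.9% of all genes.

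**Figure D3:**
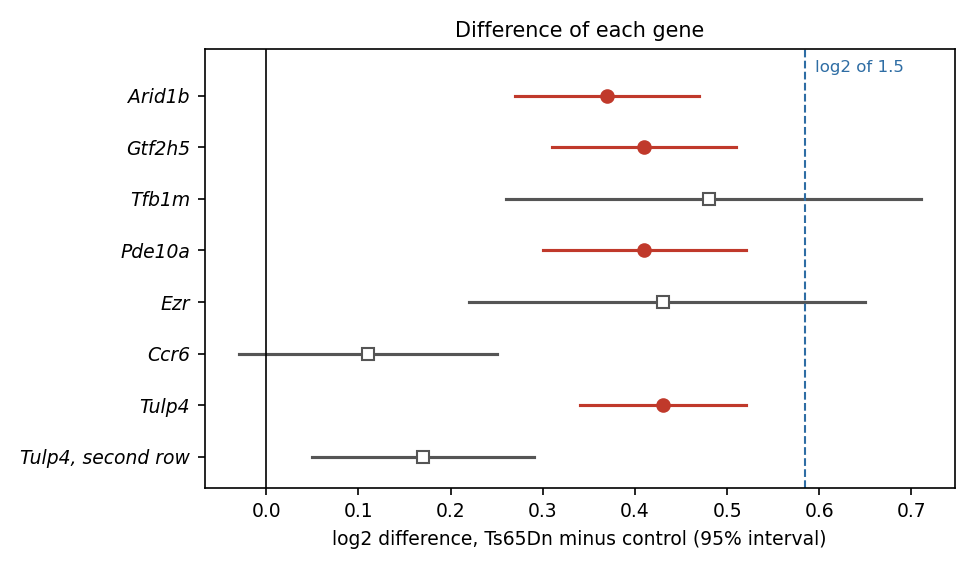
Log2 difference between Ts65Dn and control mice with its 95% confidence interval from limma for each gene and for the second row of Tulp4; filled red circles passed the adjusted p of 0.05 and open squares did not. The dashed line is log2 of the copy ratio 1.5, which only the intervals of Tfb1m and Ezr reach.

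The folds were then set against signal. The signal of a row depends on its probes, so it ranks rows by how bright they are and not genes by how many transcripts they have. Whether the array summary shrinks the ratios of dim rows was not tested. Arid1b, Gtf2h5, Tulp4 and Pde10a were brighter than 94.0%, 91.5%, 95.1% and 85.9% of the tested rows. Ezr was brighter than 81.8% and Tfb1m than 66.0%, while Ccr6 was brighter than only 29.9%. The 24 other measured genes of the Mmu17 segment had a median log2 difference of 0.26, and 7 of them were called higher. At or above the signal of Tfb1m, 5 of 7 such genes were called and their median difference was 0.42, next to 0.42 for the 6 listed genes other than Ccr6. Below it, 2 of 17 were called and the median was 0.08, next to 0.11 for Ccr6. These 17 genes ran from -0.15 to 0.51. At an unadjusted p under 0.05, 6 of them were higher, beside 351 of all 19936 genes. Tfb1m set the limit because it was the dimmest listed gene other than Ccr6, so the limit was taken from the values. Across the 127 measured genes of the trisomic Mmu16 segment the median was 0.20, and 42 were called higher.

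**Figure D4:**
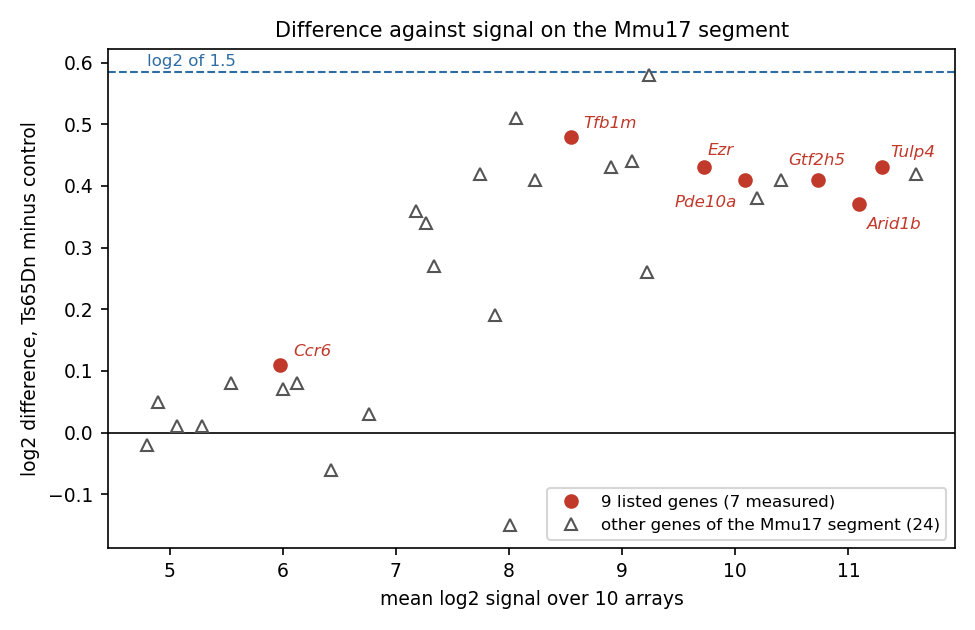
Log2 difference between Ts65Dn and control mice plotted by mean log2 signal (10 arrays) of the 7 measured listed genes (red circles) and the 24 other measured genes of the Mmu17 segment (open triangles). Ccr6, with a difference of 0.11, lies among the dim genes near 0, and the other 6 listed genes lie between 0.37 and 0.48.

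Along the chromosome the listed genes run from Tfb1m near the centromere to Pde10a, the last gene of the segment. Genes with differences near 0 stood among genes that were higher. Ccr6 lay between Cep43, which differed by 0.34 ± 0.11, and the called gene Mpc1, which was higher by 0.42 ± 0.05 (SE, log2) and whose probe positions were not checked. The 15 measured genes beyond Pde10a had differences of -0.06 to 0.13 with a median of 0.03. Of these, 0 were called in limma, 1 had an unadjusted p under 0.05 and 1 was called higher by the rank method. The gene with that p was 1700010I14Rik, next to Pde10a, at 0.13 ± 0.05 (SE, log2, adjusted p = 1.0).

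**Figure D5:**
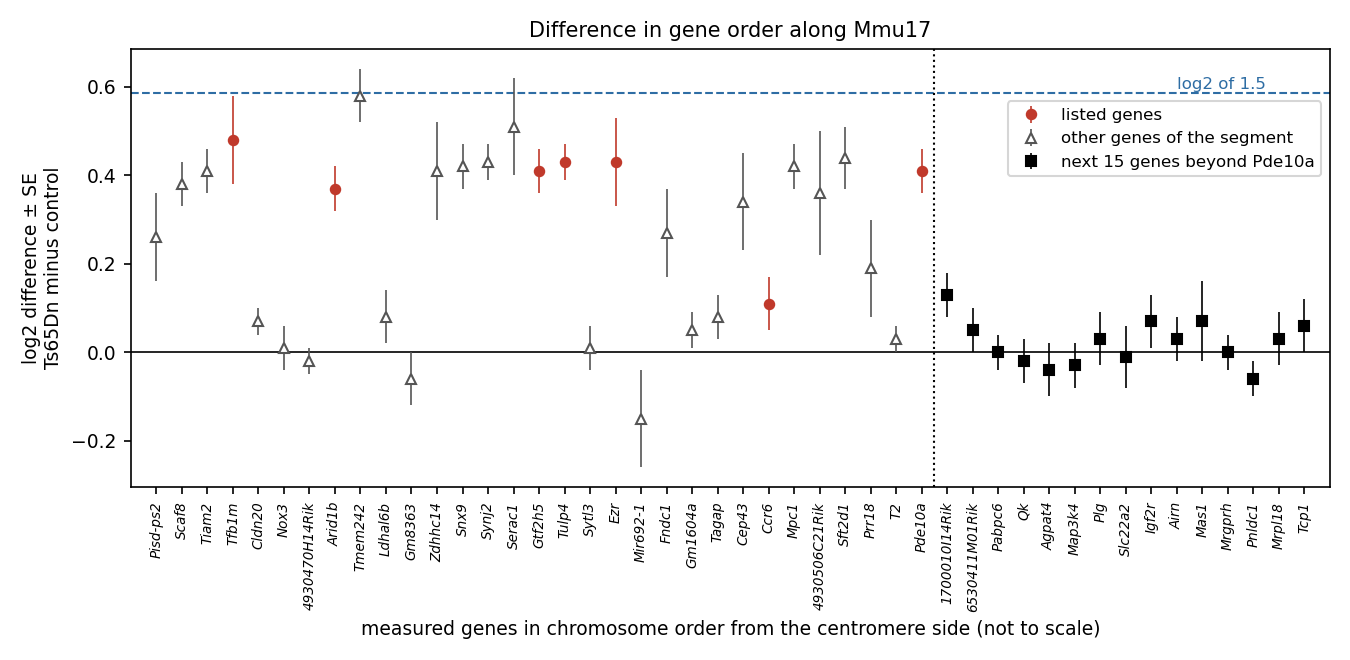
Log2 difference between Ts65Dn and control mice with its SE for the measured genes of Mmu17 in chromosome order (not to scale): listed genes as red circles, other genes of the trisomic segment as open triangles and the next 15 genes as black squares. Pde10a at 0.41 is the last gene before the dotted line, and every gene beyond it lies at or below 0.13.

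Partner and family genes of the listed genes were read from 9 lists with 123 measured genes, 0 of which lie in the trisomic segments. In the limma fit 0 of the 123 were called higher and 0 lower, beside 0.276% and 0.00502% of all genes. At an unadjusted p under 0.05, 0 were higher and 3 were lower, beside 1.57% of all genes that were lower at that p. The rank method called 2 higher and 3 lower, beside 2.9% and 2.66% of all genes. The 3 that were lower at the unadjusted p were Smarcd3, a BAF subunit, at -0.15 ± 0.05 (SE, log2, adjusted p = 0.937), the phosphodiesterase Pde11a at -0.14 ± 0.06 (adjusted p = 1.0) and the T-box factor Tbx2 at -0.14 ± 0.04 (adjusted p = 0.887).

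By list, the 25 BAF subunits other than Arid1b had a median log2 difference of -0.01, and their differences ran from -0.15 to 0.07. The 8 other TFIIH subunits also had a median of -0.01. In the TFIIH list Ercc2, a DNA helicase, differed by -0.17 ± 0.19 (SE, log2). The 14 genes of mitochondrial transcription and ribosomal RNA modification had a median of 0.01, among them Polrmt, the mitochondrial RNA polymerase, at -0.06 ± 0.04. The 17 other phosphodiesterases ran from -0.14 to 0.08. Pde4d, which degrades cAMP, differed by -0.08 ± 0.04.

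The 9 ERK and S6 kinases had a median log2 difference of 0.04. They stand here beside Rps6ka2, for which no row with its symbol alone was found. Rps6ka3, a kinase of the same family, differed by 0.15 ± 0.07 (SE, log2, adjusted p = 1.0). Of the 10 genes of the ezrin, radixin and moesin family and its partners, Msn (moesin) differed by 0.14 ± 0.07 (adjusted p = 1.0) and the median was 0.01. The 8 genes of the Tubby family and the Cullin 5 ligase had a median of -0.01, with Tub at -0.08 ± 0.04. The 15 T-box factors had a median of -0.02, and the 17 genes of the list of chemokine receptors and CCL20 ran from -0.09 to 0.07.

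Last, it was asked which genes varied between mice as the listed genes did. The genotype means were subtracted, and Pearson's r over the 10 arrays was taken against all 19936 genes. As the 3 highest of so many values they are given as a description. For Pde10a they were Ttll11 (r = 0.98), Hmg20b (r = 0.97) and Kcng2 (r = 0.94), and for Ezr they were Wwc1, Sele and Mettl16 (r = 0.96 each). For Arid1b they were Mapk8ip3 and Rab11fip2 (r = 0.98 each) and Iqgap2 (r = 0.97), and for Gtf2h5 they were Itpa, Aimp2 and Cdipt (r = 0.98 each). For Tulp4 they were Mmel1 and Cd320 (r = 0.95 each) and Chek1 (r = 0.92). Among the 21 pairs of listed genes the highest r was that of Arid1b and Pde10a, at 0.73 (exact permutation p = 0.03, adjusted p = 0.63, n = 10 mice), with Spearman's rho = 0.60 (exact permutation p = 0.109, adjusted p = 0.931). Without the 2 mice farthest from the median of Arid1b, r was 0.74. After adjustment over the 21 pairs 0 of them passed.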

How the data were processed

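The table deposited by the authors holds log2 signals. Per the submitters' processing notes they come from RMA, a summary of probes after background correction and quantile normalization, and limma and the mm10 build are named too, all without a version. Of 35556 rows, 21789 carried 1 gene symbol in the platform annotation, 1621 several and 12146 none, and the test ran over the 23410 with at least 1. Gene numbers tied 21698 of the rows with a single symbol to RefSeq (GRCm38) and accessions tied 3, with 88 left unmatched. The row with the highest mean stood for a gene.

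Genotypes were compared with limma 3.58.1 (lmFit and eBayes) in R 4.3.3, two-sided, with Benjamini-Hochberg adjustment over all tested rows. This replaced the rank method of the study, which was rewritten here as an alternative. The script was tested on simulated data. For arrays the number of mice limits the precision. Further alternatives changed the set of rows, the filter on dim rows, the normalization, the variance model, array weights, covariates (marker means), the threshold, the summary over rows of a gene and the replicate block, or left out 1 array. All listed genes are named, with up to 2 partner genes of smallest p per list and, for Ezr and the called genes, the 3 genes most alike. The genes and lists were chosen with earlier results of these data known. Plots used matplotlib 3.10.9. Protein sequences were not used here.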

Additional observations from a re-analysis of the deposited data

How the results depend on the processing

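The 7 genes kept their direction in all alternatives in which they had a value, and Arid1b, Gtf2h5, Tulp4 and Pde10a kept their calls in all of them. Ccr6 had no value where rows with a mean log2 signal under 6 were left out. The number of genes called higher was 4 to 6 over 17 settings, with 6 by the rank method, and 4 to 5 when 1 array was left out. The median log2 difference was 0.41 to 0.42, and 0.40 to 0.44 without 1 array. The number of genes with an interval below 1.5 was 4 to 6, and 5 to 6 without 1 array. The number of partner genes called was 0 in the limma fits. It was 5 by the rank method, which called 2.9% of all genes higher and 2.66% lower. That method uses fixed limits with no adjustment over the rows. With the mean of both rows, the difference of Tulp4 was 0.30 instead of 0.43.

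Tfb1m had adjusted p-values of 0.0514 to 0.399 over the alternatives and of 0.0122 to 0.427 without 1 array. Ezr had 0.0461 to 0.358, and 0.128 to 0.582 without 1 array. The replicate block gave Ezr the same difference of 0.43 with an adjusted p of 0.0461, which made 5 calls in place of 4, and changed no other call of the 7 genes. The labels number the mice of both genotypes but name no shared litter. Same-numbered mice correlated at 0.414, 0.338, 0.241, -0.157 and 0.367 in their deviations from the genotype means, of which 3 exceeded the highest value of differently numbered mice, 0.323, and 3 of 5 Ts65Dn mice correlated best with their own number. The numbers were taken as pairs only if every pair exceeded 0.1. As the fourth did not, whether they mark pairs is unsettled, and the fit without the block is given in the report. Ccr6 is dim, and whether the signal limits its fold was not tested.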
